A study of Mus musculus with 12 samples.

Results

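The dermal adipocyte genes described here are 10 genes known from fat cells, namely Adipoq, Lep, Retn, Cfd, Plin1, Plin4, Cidec, Fabp4, Lipe and Pparg. They were taken by name from the 36400 gene rows of an RNA-seq table of mouse dorsal skin, where each name occurs in 1 row. Mouse skin carries a layer of white adipocytes below the dermis, around the lower ends of the hair follicles, and this layer thickens and thins as the hair cycle and inflammation proceed. An adipocyte stores triglyceride in a coated lipid droplet, releases it as fatty acids when needed, and secretes protein hormones (adipokines). The transcription factor PPARγ, with the C/EBP proteins, switches on most of the genes of the mature cell.

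The study asked how human umbilical cord mesenchymal stem cells (MSCs) act on dermatitis that 1-chloro-2,4-dinitrobenzene (DNCB) causes. All 12 mice were female BALB/c, 6 weeks old at purchase, with the back shaved, and dorsal skin was taken on day 30 from 3 mice per group. Control skin was painted with vehicle alone, a mix of acetone and olive oil. Mice of the other 3 groups were sensitized by 1% DNCB and challenged by 0.5% DNCB. In the scMSC group, 2000000 MSCs were injected under the back skin in 100 µL on each of 4 occasions between day 13 and day 25, and in the scivMSC group the dose was split into 50 µL given subcutaneously and 50 µL by tail vein. DNCB mice received no MSCs. The MSC groups thus share the DNCB exposure, and no group received MSCs without DNCB.

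Levels are FPKM, the authors' value of fragments scaled by gene length and by library size. Tests used the estimated counts deposited beside them, which summed to between 63877153 and 75134001 per library. All 10 genes passed the minimum of 0.1 FPKM on average that left 21890 genes to test, and their estimated counts ran from 165 (Lep in a scivMSC library) to 78233 (Fabp4). A gene was called when edgeR's quasi-likelihood test gave a Benjamini-Hochberg adjusted p under 0.05 over all genes tested and an absolute log2 fold change over 1. Group levels are mean ± SD of 3 libraries, and fold changes are log2 ± standard error. A permutation test of 3 libraries against 3 has 0.1 as its smallest two-sided p, so none is given.

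All 10 genes were detected in every library. Summed over the 10, the level was 700, 647 and 549 FPKM in the control libraries and 231, 289 and 428 in the DNCB libraries. The scMSC libraries stood at 878, 580 and 440 FPKM and the scivMSC libraries at 1001, 1065 and 606. The 3 DNCB libraries were thus the lowest of the 12, below scMSC replicate 3 by a small margin. Cfd, the most abundant of the 10, made up 30.6 to 32.3% of that sum in DNCB libraries and 36.4 to 55.3% in all others. Libraries of a group also differed from each other across the genes together. DNCB replicate 3 held the highest value of its group in 10 of 10 genes, scMSC replicate 1 in 8, while scivMSC replicate 3 held the lowest in 7. In bulk skin, fewer fat cells, less RNA per fat cell and a larger share of RNA from other cells cannot be told apart.

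Among the adipokines, Cfd encodes adipsin, the complement protease factor D. Its level was 267, 295 and 287 FPKM in control libraries, 71.6, 93.4 and 131 in DNCB, 377, 223 and 160 in scMSC, and 504, 589 and 252 in scivMSC. Every DNCB library was below every library of the other groups, while control, scMSC and scivMSC overlapped. Cfd fell in DNCB against control, by 1.71 ± 0.35 on the log2 scale or 3.26-fold (adjusted p = 0.00533). It rose against DNCB in scMSC, by 1.38 ± 0.34 (adjusted p = 0.0251), and in scivMSC, by 2.18 ± 0.35 (adjusted p = 0.00705). The calls against control and in scivMSC held without any 1 of the 12 libraries. Leaving out DNCB 1, DNCB 2, scMSC 1 or scMSC 2 ended the scMSC call, at adjusted p of 0.0627 to 0.0986, as did a fit of the 6 compared libraries alone (0.0549) and the replicate number as a block (replicate block, 0.0584).

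Retn encodes resistin, in mice a product of white fat. It stood at 29.4, 35.9 and 20.7 FPKM in control, 4.06, 7.44 and 9.33 in DNCB, 13.2, 9.30 and 9.03 in scMSC, and 23.1, 27.5 and 12.7 in scivMSC. The DNCB and scMSC libraries lay below every control library and overlapped each other, and the scivMSC libraries lay above every DNCB library. Retn fell by 2.24 ± 0.36 in DNCB against control (adjusted p = 0.00173, 4.73-fold), and was 1.62 ± 0.35 lower on the log2 scale in scMSC than in control (log2 fold change -1.62, adjusted p = 0.00997). Both calls held without any 1 library. Retn was called higher in scivMSC than in DNCB (1.60 ± 0.35, adjusted p = 0.0219), a call that ended when DNCB 1, DNCB 2 or scivMSC 1 was left out (adjusted p of 0.0693 to 0.0729) or in a fit of the 6 compared libraries (0.0556). Against DNCB in scMSC the value was 0.62 ± 0.34 (adjusted p = 0.306), and whether the MSC groups differ in Retn is given with the direct comparison of these groups.

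Adipoq encodes adiponectin, the abundant hormone of the mature adipocyte. Its libraries read 69.5, 54.8 and 32.6 FPKM in control, 27.1, 30.4 and 48.8 in DNCB, 76.9, 39.9 and 31.2 in scMSC, and 66.5, 74.6 and 49.5 in scivMSC. The spread within groups was wide, and only scivMSC was clear of DNCB, by less than 1 FPKM. No comparison of Adipoq passed: the log2 values were -0.76 ± 0.37 for DNCB against control (adjusted p = 0.159) and 0.84 ± 0.37 for scivMSC against DNCB (adjusted p = 0.199).

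Lep encodes leptin, the satiety hormone, and differed from the other 9 genes in scivMSC, where it alone was fitted below 0 against DNCB. It was measured at 7.48, 5.31 and 2.25 FPKM in control, 2.76, 2.70 and 7.39 in DNCB, and 4.45, 2.69 and 6.16 in scMSC. In scivMSC its libraries read 0.601, 0.616 and 1.18 FPKM. The first 3 groups overlapped throughout, and every scivMSC library lay below all 9 of their libraries. Lep fell in scivMSC, by 2.39 ± 0.56 against DNCB (adjusted p = 0.0283, 5.25-fold) and by 2.83 ± 0.57 against control (adjusted p = 0.0115, 7.09-fold). The call against DNCB ended when DNCB 2, DNCB 3, scivMSC 1 or scivMSC 2 was left out, with adjusted p of 0.0514 to 0.109 and a log2 value of -1.75 without DNCB replicate 3. The call against control was lost without scivMSC replicate 2 (adjusted p = 0.0508). Over 11 other settings the log2 value ran from -2.42 to -1.46 against DNCB and from -3.01 to -1.65 against control, and 0 of these settings ended either call.

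**Figure D1:**
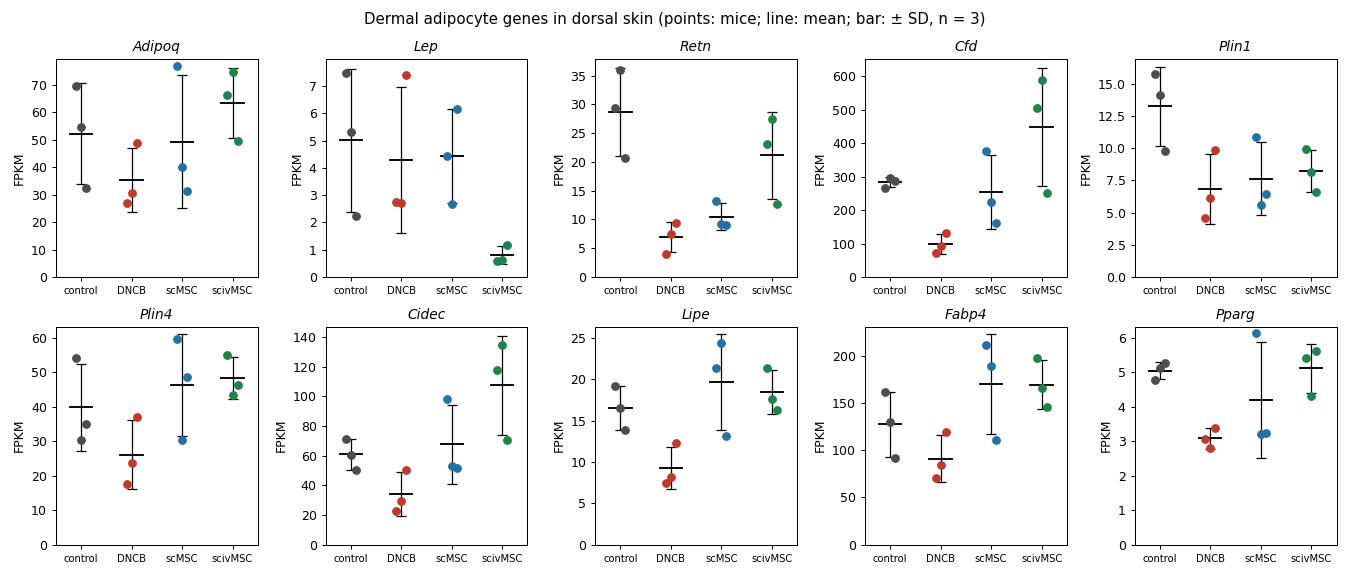
Level in FPKM (y axis) of each of the 10 genes in control, DNCB, scMSC and scivMSC libraries (x axis), with a point for each library, a line for the mean and a bar for ± SD of 3 libraries. Cfd, Retn, Lipe and Pparg are lower in all 3 DNCB than in all 3 control libraries, and Lep is lowest in the scivMSC libraries, at 0.601 to 1.18 FPKM.

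Set against Adipoq of the same library, Lep had 6.90 to 10.8 FPKM per 100 FPKM of Adipoq in control, 8.87 to 15.2 in DNCB and 5.79 to 19.7 in scMSC. In scivMSC the ratio was 0.904, 0.827 and 2.37. The scivMSC libraries thus held the lowest 3 ratios of the 12. Over the 12 libraries, the level of Lep had a Pearson correlation of -0.22 with the mean of the other 9 genes, while each of those 9 had one of 0.73 to 0.88 with the mean of its own others. After removal of group means, that value for Lep was 0.41 and for the others 0.47 to 0.96. These correlations describe 12 libraries that share their groups and carry no test.

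Of the proteins on the lipid droplet, perilipin 1 (Plin1) guards the droplet of the adipocyte against lipases. Plin1 was at 15.8, 14.2 and 9.78 FPKM in control, 4.54, 6.14 and 9.85 in DNCB, 10.9, 5.58 and 6.41 in scMSC, and 9.93, 8.13 and 6.62 in scivMSC. Levels in the 3 groups given DNCB overlapped, and only DNCB replicate 3 and scMSC replicate 1 and scivMSC replicate 1 reached the lowest control library. Plin1 fell by 1.15 ± 0.32 in DNCB against control (adjusted p = 0.0230). It had 0.17 ± 0.31 in scMSC and 0.27 ± 0.31 in scivMSC against DNCB, with adjusted p of 0.817 and 0.685. The call ended when control 1, control 2, DNCB 1 or DNCB 2 was left out (adjusted p of 0.0562 to 0.0822), and under library size alone and limma the log2 value stayed within 1 of 0.

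Cidec encodes the protein that fuses small droplets into the single large droplet of white fat. It read 71.5, 60.6 and 50.5 FPKM in control, 22.4, 29.5 and 50.5 in DNCB, 98.2, 53.3 and 51.6 in scMSC, and 118, 135 and 70.4 in scivMSC. Each DNCB library was below all MSC libraries, although DNCB replicate 3 came within about 1 FPKM of the lowest scMSC library and was level with the lowest control library. Cidec fell in DNCB against control by 1.02 ± 0.34 (adjusted p = 0.0475) and rose in scivMSC against DNCB by 1.65 ± 0.34 (adjusted p = 0.0181). In scMSC the value was 1.00 ± 0.34 (adjusted p = 0.0820), and without DNCB replicate 3 it was called, at 1.39 (adjusted p = 0.0357). The first call was lost without any 1 of 7 libraries (control replicates 1 and 2, DNCB 1 and 2, scMSC 2, scivMSC 1 and 2), with adjusted p of 0.0525 to 0.153, and with library size alone, no filter, limma or the replicate block, and the scivMSC call when DNCB 1, DNCB 2 or scivMSC 1 was left out (0.0621 to 0.0733).

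Plin4, a perilipin of small nascent droplets, ran from 30.4 to 54.2 FPKM in control, 17.5 to 37.0 in DNCB, 30.4 to 59.6 in scMSC and 43.5 to 55.1 in scivMSC. Only the scivMSC libraries were clear of DNCB, and no comparison passed, with log2 values of -0.80 ± 0.31 for DNCB against control (adjusted p = 0.0848) and 0.90 ± 0.31 for scivMSC against DNCB (adjusted p = 0.109). Without DNCB replicate 3, the library with the highest DNCB level, the first value was -1.13 with an adjusted p of 0.0345. Plin4 overlaps Hdgfl2 on the other strand, and whether the authors' counting used strand is not given in the sources used here.

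Cidec and Plin1, which share the droplet surface, were also set against each other. Cidec had 4.28 to 5.16 FPKM per FPKM of Plin1 in control and 4.81 to 5.13 in DNCB. The ratio was 8.06 to 9.55 in scMSC and 10.6 to 16.6 in scivMSC. Control and DNCB overlapped, while the scMSC libraries lay above both and the scivMSC libraries above scMSC. Both ratios were chosen after their values were seen and were not tested.

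**Figure D2:**
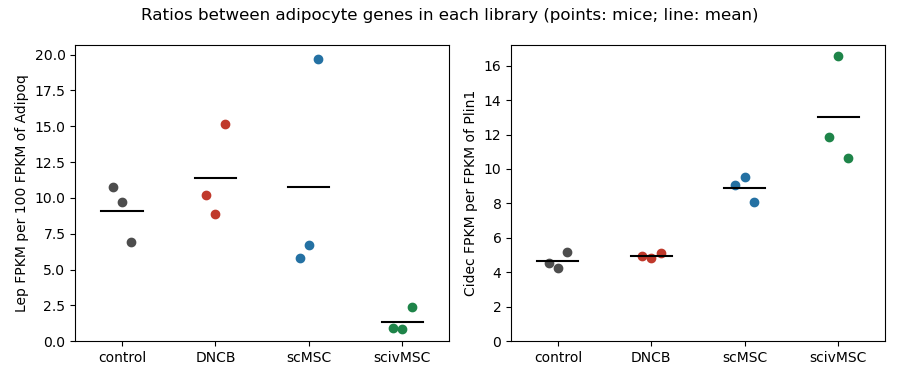
Ratio of FPKM (y axes) between genes of the same library in the 4 groups (x axes), with a point for each library and a line for the mean: Lep per 100 FPKM of Adipoq on the left and Cidec per FPKM of Plin1 on the right. The scivMSC libraries hold the lowest Lep ratios, 0.827 to 2.37, and the highest Cidec ratios, 10.6 to 16.6.

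Lipe encodes hormone-sensitive lipase, which cleaves diglyceride when the cell releases fatty acids. Lipe was at 19.2, 16.5 and 13.8 FPKM in control, 7.48, 8.18 and 12.2 in DNCB, 21.4, 24.3 and 13.2 in scMSC, and 21.4, 17.6 and 16.3 in scivMSC. All DNCB libraries were below all others, and the other 3 groups overlapped. Lipe fell by 1.02 ± 0.26 in DNCB against control (adjusted p = 0.0162) and rose by 1.11 ± 0.26 in scMSC against DNCB (adjusted p = 0.0190). In scivMSC against DNCB it had an adjusted p of 0.0421 at a log2 value of 0.99 ± 0.26, short of the fold threshold. The call against control was lost without control 1, DNCB 1 or DNCB 2 (adjusted p of 0.0562 to 0.0665), and that in scMSC without DNCB 1, DNCB 2 or scMSC 2 (0.0766 to 0.0818). The call against control also ended with library size alone, limma and the replicate block, and that in scMSC in a fit of the 6 compared libraries (0.0637) and at a value of 0.99 with limma on log2(FPKM + 1). An antisense gene, 4732471J01Rik, overlaps Lipe on the other strand.

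Fabp4 encodes the carrier of fatty acids in the adipocyte cytoplasm, and capillary endothelium also expresses it. Its level ran from 92.0 to 161 FPKM in control, 70.3 to 119 in DNCB, 110 to 211 in scMSC and 145 to 197 in scivMSC. Only the scivMSC libraries were all above the DNCB libraries. Its log2 values, -0.68 ± 0.30 in DNCB against control, 0.93 ± 0.30 in scMSC and 0.90 ± 0.30 in scivMSC against DNCB, had adjusted p of 0.1204, 0.0673 and 0.0930. Without scMSC replicate 3, Fabp4 was called higher in scMSC than in DNCB, at 1.17 (adjusted p = 0.0288).

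Pparg encodes PPARγ, the receptor and transcription factor that drives fat cell formation and is also active in sebaceous glands. It was measured at 4.78, 5.12 and 5.26 FPKM in control, 3.06, 2.80 and 3.40 in DNCB, 6.15, 3.23 and 3.24 in scMSC, and 5.42, 4.32 and 5.62 in scivMSC. DNCB libraries were below all control and scivMSC libraries, and 2 scMSC libraries were within their range. In DNCB against control the value of -0.90 ± 0.24 had an adjusted p of 0.0178 but stayed within the fold threshold. Against DNCB it was 0.46 ± 0.23 in scMSC and 0.74 ± 0.23 in scivMSC (adjusted p = 0.254 and 0.0811). An antisense gene, Gm44079, overlaps Pparg on the other strand.

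Counted together, 5 of 10 genes were called lower in DNCB than in control (Retn, Cfd, Plin1, Cidec and Lipe), where 7.57% of all genes tested were called lower and 6.59% higher. The 10 genes and the other lists were chosen with earlier results of these data known, so such counts describe them and test nothing. The median log2 value of the 10 was -0.96, against 0.02 over all genes tested, and all 10 were below 0, also under each scaling tried. In 4 of 10 genes every DNCB library was below every control library, which held for 16.1% of genes tested. The reverse, every DNCB library above every control library, held for 0 of the 10 genes and 31.7% of genes tested. The count of called genes depends on the scaling. Library size alone in place of TMM moved the median of all genes by 0.18 and limma on log2(FPKM + 0.1) by 0.18, and each then called 2 of the 10, Retn and Cfd. Over all genes the balance also turned, from 1442 called higher and 1656 lower with TMM to 2020 and 1301 with library size alone and 2192 and 1384 with limma.

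Between scMSC and DNCB, 2 of 10 genes were called higher in scMSC (Cfd and Lipe) and 0 lower, beside 4.66% and 3.84% of all genes. The median was 0.73, against 0.02 over all genes, and in 3 genes (Cfd, Cidec and Lipe) every scMSC library was above every DNCB library, which held for 16.0% of all genes. Between scivMSC and DNCB, 3 were called higher (Retn, Cfd and Cidec) and 1 lower (Lep), beside 3.13% and 2.33% of all genes. The median was 0.90, against 0.02, and in 8 of 10 genes every scivMSC library was above every DNCB library, which held for 16.4% of all genes. These comparisons share the DNCB libraries, so their directions are not independent of one another. Without any 1 library the counts ran from 0 to 3 in scMSC and from 1 to 4 in scivMSC.

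Against control, scMSC had 1 gene called lower, Retn, and 0 higher (4.20% and 5.12% of all genes). Plin1 was called lower there with DESeq2 (-1.005, adjusted p = 0.0153) and with a mean of at least 1 FPKM (-1.003, adjusted p = 0.0398). Plin1 was also called without control 3 (-1.23) or scMSC 1 (-1.28). scivMSC had 1 called lower, Lep, and 0 higher (3.35% and 3.50% of all genes). Medians of the 10 were -0.30 and 0.03, against 0.00 and 0.04 over all genes, and for the 9 genes not called in each case the test gives no statement that levels had returned. Between scMSC and scivMSC directly, edgeR called 0 of the 10 and 0.00457% of all genes. At an unadjusted p under 0.05 there were 3, namely Lep (2.46 ± 0.57 higher in scMSC, adjusted p = 0.565), Retn and Cfd (-0.98 ± 0.35 and -0.80 ± 0.34). DESeq2 called 1, Lep, with an adjusted p of 0.00338, beside 59 genes called higher and 56 lower of 21815, and limma on log2(FPKM + 0.1) called 0. The adjusted p of Lep thus turns on the tool, and a difference between the routes in the other genes is not shown.

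**Figure D3:**
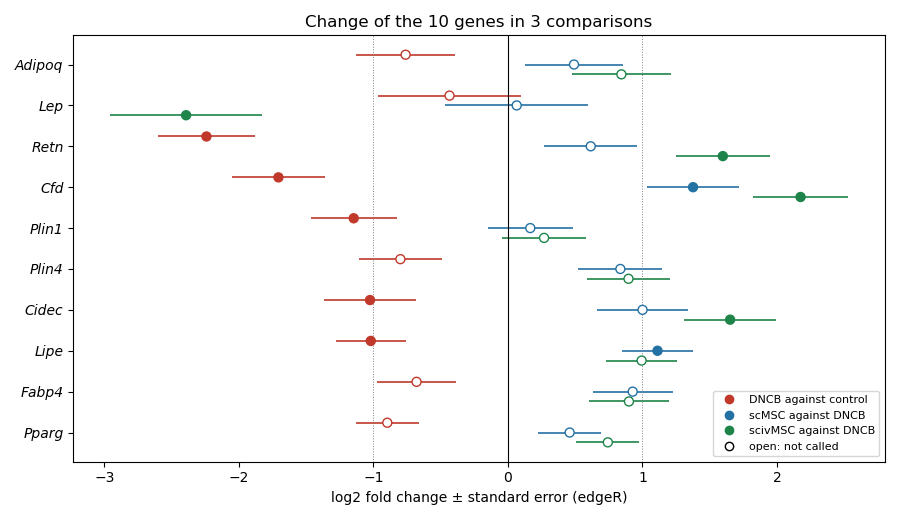
Log2 fold change with its standard error (x axis) of each of the 10 genes (y axis) in DNCB against control, scMSC against DNCB and scivMSC against DNCB, from edgeR with 3 libraries per group. Filled points were called, open points were not, and dotted lines mark the fold threshold of 1 on the log2 scale; Lep in scivMSC, at -2.39, is the only called point below 0 among the MSC comparisons.

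Genes that act beside these 10 in a fat cell were counted by list, and these lists too were chosen with earlier results known. Of 12 genes of fatty acid and triglyceride synthesis, 6 were called lower in DNCB than in control and 0 higher, with a median of -1.14. Scd1, which desaturates fatty acids, averaged 480 ± 57.7 FPKM in control and 71.8 ± 5.15 in DNCB and fell by 2.93 ± 0.31 (adjusted p = 0.000489). Gpd1, Me1 and Dgat2, which supply glycerol phosphate, NADPH and the last step of triglyceride synthesis, fell by 1.96, 1.60 and 1.40. In scMSC against DNCB 1 of the 12 was called, Scd1 (2.16 ± 0.30), and in scivMSC 2, Scd1 (2.45 ± 0.30) and Pck1. Against control, 4 of the 12 were called lower in scMSC (4 to 6 with a library left out), Me1 and Gpd1 (-1.95) among them. In scivMSC 2 were called lower than in control (2 to 4 with a library left out), Gpd1 (-1.33) among them, and 1 higher, Pck1. The Scd1, Gpd1, Me1 and Dgat2 calls held without any 1 library. Sebaceous gland markers, also of a lipid-making cell, ran in the same direction as Scd1, and their part in this list was not tested.

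Pck1 encodes the enzyme from which adipocytes make glycerol for new triglyceride, and was singled out after its values were seen. It read 16.9, 11.2 and 6.67 FPKM in control, 6.14, 11.01 and 14.98 in DNCB, 41.8, 22.9 and 13.6 in scMSC, and 60.1, 61.4 and 26.2 in scivMSC. All scivMSC libraries were above all control and DNCB libraries, with a log2 value of 2.19 ± 0.51 against DNCB (adjusted p = 0.0263) and 1.88 ± 0.50 against control (adjusted p = 0.0328). The call against DNCB ended without any 1 of the 3 DNCB libraries, scivMSC 1 or scivMSC 2 (adjusted p of 0.0507 to 0.0949), and with the replicate block (0.0533). Against control it ended without any 1 of the 3 control libraries, scivMSC 1 or scivMSC 2, at 0.0514 or more, and in a fit of the 6 compared libraries (0.0569). Per FPKM of Adipoq, Pck1 had 0.204 to 0.244 in control, 0.226 to 0.361 in DNCB, 0.435 to 0.573 in scMSC and 0.529 to 0.904 in scivMSC.

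Of 9 genes of lipolysis and its control, 2 were called lower (1 to 4 with a library left out) and 1 higher in DNCB than in control. The higher one was G0s2, whose product inhibits adipose triglyceride lipase, at 70.4, 79.0 and 50.8 FPKM in DNCB and 3.97 to 17.9 in every other library. G0s2 rose by 1.77 ± 0.37 against control, and fell against DNCB by 3.31 ± 0.40 in scMSC and 3.15 ± 0.39 in scivMSC (adjusted p = 0.00621, 0.00183 and 0.00349), calls that held without any 1 library. Neutrophil markers were likewise high in the DNCB libraries alone, and their part in G0s2 was not tested. G0s2 was also called lower than control in both MSC groups (-1.54 and -1.38), in scivMSC not without control 1, control 2, DNCB 1, scivMSC 1 or scivMSC 2 (adjusted p of 0.0506 to 0.111) and not in a fit of the 6 compared libraries (0.0933). Mgll, the monoglyceride lipase, and Adrb3, the adrenergic receptor of fat cells, fell by 3.17 ± 0.81 and 2.23 ± 0.46 in DNCB, Mgll not without DNCB 1 or DNCB 2 (adjusted p of 0.0585 and 0.0606). Pnpla2, the triglyceride lipase itself, rose by 1.23 ± 0.21 in scivMSC against DNCB, and Mgll by 3.43 ± 0.82, a call that ended without any 1 of the 3 DNCB libraries, scivMSC 1 or scivMSC 3 (adjusted p of 0.0501 to 0.109). Without scivMSC 3, at 185 FPKM against 47.5 and 59.8, the Mgll value was 2.51.

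Of 10 genes of lipid and glucose uptake, 4 were called lower in DNCB than in control and 0 higher (median -0.65). Slc2a4, the insulin-responsive glucose transporter of fat and muscle, fell by 2.07 ± 0.31, and Lpl, the lipase of circulating lipoproteins, by 1.12 ± 0.23, a value of -0.98 without control 1. Library size alone and limma left Slc2a4 as the called gene of this list. Slc2a4 was also the 1 gene of this list called lower than control in scMSC and in scivMSC, and both calls held without any 1 library. In scMSC and scivMSC against DNCB 1 gene each was called higher, Irs2 (1.16 ± 0.18, chosen after its values were seen, 0.95 without scMSC 3 and 0.97 with limma on log2(FPKM + 1)) and Slc27a1 (1.23 ± 0.22). Among 10 adipogenic transcription factors other than Pparg, Mlxipl and Klf15 were called lower in DNCB (-2.45 ± 0.36 and -1.81 ± 0.29) and 8 were not called. Klf15 rose again against DNCB in scMSC (1.54 ± 0.29) and scivMSC (1.62 ± 0.29), whereas Mlxipl was still called lower than control in both (-1.76 and -1.79), in scivMSC not in a fit of the 6 compared libraries (adjusted p = 0.0550). Of 5 genes of caveolae and droplet assembly 1 was called, Fitm2, at -1.53 ± 0.17 in DNCB against control and 1.13 ± 0.17 in scivMSC against DNCB (0.97 without scivMSC 3).

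Relatives of the 10 genes ran in several directions. Fabp5, the fatty acid carrier of keratinocytes and a relative of Fabp4, averaged 82.2 ± 19.9 FPKM in control and 594 ± 91.5 in DNCB and rose by 2.67 ± 0.40. Against DNCB Fabp5 fell by 2.61 ± 0.40 in scMSC, and by 1.48 ± 0.38 in scivMSC, a call that ended without any 1 of the 3 DNCB libraries, control 2, control 3, scivMSC 1 or scivMSC 3 (adjusted p of 0.0543 to 0.138), or in a fit of the 6 compared libraries (0.0929), and that stood at -2.07 without scivMSC 2. Of the resistin family, Retnla fell from 114, 182 and 507 FPKM in control to 10.4, 11.3 and 5.43 in DNCB, while Retnlg, a gene of neutrophils, was at 0, 0 and 0.360 FPKM in control and 103, 96.5 and 49.2 in DNCB. Cidea, a relative of Cidec that sebaceous glands also express, fell by 2.43 ± 0.43 in DNCB and rose by 1.92 ± 0.43 in scMSC and 2.89 ± 0.44 in scivMSC against DNCB, in scMSC not without DNCB 2 or DNCB 3 (adjusted p of 0.0601 and 0.0643). The scivMSC value was 2.23 without scivMSC 3, where Cidea stood at 97.8 FPKM against 44.7 and 31.1. In all, 3 of 9 relatives were called lower and 2 higher in DNCB against control, where Retn, Cidec and Plin1 but not Fabp4 were called lower.

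Markers of other cell types, in lists also chosen with earlier results known, differed between groups as well. Of 6 skeletal muscle genes 5 were called lower in DNCB than in control. Their summed level was 20500, 20600 and 14650 FPKM in control, 4115 to 5676 in DNCB, 4151 to 9551 in scMSC and 4401 to 10770 in scivMSC, with Acta1 the most abundant. In scMSC and in scivMSC against DNCB, edgeR, DESeq2 and limma each called 0 of the 6 muscle genes, and 0 had an unadjusted p under 0.05 by edgeR, with 5 and 6 of the 6 fitted above 0. The part of muscle in the adipocyte genes, and in genes that muscle shares such as Slc2a4, was not tested.

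Of 6 sebaceous gland genes, all 6 were called lower in DNCB than in control and all 6 higher in each MSC group than in DNCB (5 or 6 in each MSC group with a library left out). Their sum was 105 to 142 FPKM in control, 4.98 to 10.8 in DNCB, 40.0 to 109 in scMSC and 63.6 to 166 in scivMSC, with Far2 the most abundant on average. All 6 neutrophil genes went the other way, with sums of 2415 to 3337 FPKM in DNCB and 14.9 to 207 elsewhere. S100a9, the most abundant (1573 to 2236 FPKM), and S100a8 (788 to 1053) made up most of the DNCB sums. In DNCB libraries Csf3r was at 25.8 to 31.5 FPKM and Cxcr2 at 10.3 to 12.7. Ly6g, chosen after its values were seen, was at 0 outside DNCB. Of 6 capillary endothelium genes 1 was called higher in DNCB than in control, and 3 were called lower in scMSC and 1 in scivMSC than in DNCB, counts that each reached 0 with some library left out. The endothelial sum was 28.8 to 42.4 FPKM in control, 52.3 to 63.8 in DNCB, 23.8 to 46.0 in scMSC and 18.6 to 45.3 in scivMSC, with Pecam1 the most abundant, and was above all other libraries in every DNCB library. The part of these cell types in the adipocyte genes was not tested.

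Fibroblast, keratinocyte and hair genes also differed between groups, and macrophage genes were counted beside them. Of 6 fibroblast genes 3 were called higher in DNCB than in control, 3 were called lower in scMSC than in DNCB (0 to 4 with a library left out), and edgeR called 0 in scivMSC against DNCB, where 5 had an unadjusted p under 0.05 and other settings called up to 4. They had sums of 237 to 346 FPKM in control, 1909 to 2236 in DNCB, 248 to 752 in scMSC and 129 to 946 in scivMSC (most abundant Col3a1). No macrophage gene of 6 was called in any comparison by the main edgeR fit. In DNCB against control, scMSC against DNCB and scivMSC against DNCB, 0, 2 and 2 had an unadjusted p under 0.05. Other settings called up to 1, 3 and 2 in these comparisons. Fits with a library left out called up to 1, 3 and 0 of the 6 macrophage genes. Their sums were 140 to 534 FPKM in control, 567 to 600 in DNCB, 118 to 291 in scMSC and 34.8 to 327 in scivMSC (most abundant Lyz2). Of the keratinocyte genes 2 of 6 were called higher and 1 lower in DNCB than in control, and 2 were called lower and 1 higher in each MSC group than in DNCB, with Krt10 the most abundant and sums of 13270 to 19380 FPKM in DNCB and 4997 to 15450 elsewhere. The 2 lower calls in scivMSC became 0 without DNCB 1, DNCB 2, scivMSC 1 or scivMSC 3. Hair shaft and inner root sheath genes summed to 4.04 to 295 FPKM in control, 282 to 872 in DNCB, 6092 to 17200 in scMSC and 2302 to 5626 in scivMSC (most abundant Krt71). Of these 6 hair genes edgeR called 0 in DNCB against control, 3 higher in scMSC than in DNCB (0 to 6 with a library left out) and 0 in scivMSC against DNCB. In the comparisons with 0, 2 and 4 had an unadjusted p under 0.05, other settings called up to 5 in each, and 6 and 5 were called without control 2, the control library with the highest hair sum. The part of these cells in the adipocyte genes was not tested.

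Outside the 10, 14376 genes of at least 1 FPKM on average were ranked by likeness to the 10 over the 12 libraries. Likeness was the Pearson correlation of log2(FPKM + 0.1) with the mean z score of the 10. The first 8 were Slc36a2 (0.982), Aifm2 (0.953), Slc7a10 (0.946), Amy1 (0.939), Ces1d (0.931), Ephx2 (0.908), Cd36 (0.902) and Cdo1 (0.901). Of the 8, Cd36, a fatty acid transporter, is in the uptake list. It stood at 37.1 to 66.3 FPKM in control, 28.8 to 43.8 in DNCB, 41.4 to 81.2 in scMSC and 42.8 to 68.2 in scivMSC, and was not called in any comparison.

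The 10 genes lie on 7 chromosomes, with Lep, Cidec and Pparg on chromosome 6 and Plin1 and Lipe on chromosome 7, and share no position. RefSeq promoter windows (GRCm38.p6, 250 bases before to 50 after a transcription start) were found for 9 of the 10, all but Fabp4, with 13 windows in total. On either strand, the palindrome TTGCGCAA, a form of C/EBP site, occurs in 0.183% of 32851 windows of all genes and in 1 of the 13, that of Lep. AGGTCA, the single site of nuclear receptors such as PPARγ, occurs in 16.3% of all windows and in 2 of 13, both of Pparg. The pair AGGTCANAGGTCA occurs in 0.0396% of all windows and in 0 of 13. TATAAA occurs in 13.6% and in 1 of 13 (Pparg), and CCAAT in 37.4% and in 4 of 13 (Adipoq, Plin4 and Pparg). A match is a match of letters only, and a window without one says nothing of a factor. The windows of Lep and Cfd, the genes with opposite calls in scivMSC, are shown up to shortly before the start, on the + strand, at chr6:29059971-29060210 and chr10:79890603-79890842, with a match to a searched motif in capitals. Lep has the palindrome at bases 196 to 203, and Cfd has no match.
Lep: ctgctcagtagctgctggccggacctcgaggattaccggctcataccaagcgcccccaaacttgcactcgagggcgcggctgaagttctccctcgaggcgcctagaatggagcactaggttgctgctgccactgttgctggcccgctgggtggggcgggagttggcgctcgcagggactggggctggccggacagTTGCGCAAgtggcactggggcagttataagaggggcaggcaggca
Cfd: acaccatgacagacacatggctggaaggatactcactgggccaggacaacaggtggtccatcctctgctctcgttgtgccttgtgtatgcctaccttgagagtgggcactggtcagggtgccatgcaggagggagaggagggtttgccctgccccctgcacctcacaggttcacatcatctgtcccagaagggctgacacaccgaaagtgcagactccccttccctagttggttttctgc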

How the data were processed

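Total RNA of dorsal skin from 12 mice, 3 in each of 4 groups, was sequenced, and 1 table of genes by libraries was used here. It holds FPKM values, which the authors scaled to gene length and library size before they were deposited. It also holds estimated counts, which the authors deposited as rounded whole numbers without scaling between libraries. The submitters' processing notes name HISAT2 2.0, StringTie 1.3.0, Bowtie 0.12.2 and the build mm8 with no role for each. Gene coordinates in the table match GRCm38, since 36287 of 36400 gene IDs are in GENCODE M21 and 36285 overlap their gene there. Estimated counts summed to between 63877153 and 75134001 per library, and 38.9 to 41.2% of the values from 1 to 18 in a library were multiples of 4. How many estimated counts a fragment makes is not given, and counting precision may be lower than the counts appear.

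The 21890 genes that averaged 0.1 FPKM or more across libraries were kept. The estimated counts were fitted in edgeR 4.0.16 (R 4.3.3) with TMM scaling (factors 0.887 to 1.06), 1 model of 4 groups, a common biological coefficient of variation of 0.42 and quasi-likelihood F tests for 6 comparisons. Standard errors were derived from the fold change and the F statistic. Calls needed a fold change beyond 1 on the log2 scale in either direction, and p below 0.05 after Benjamini-Hochberg adjustment. The design planned limma for the case that FPKM alone were available. Alternatives were DESeq2 1.42.0, library size alone, relative log expression factors, no filter, a mean of at least 1 FPKM, limma 3.58.1 on log2(FPKM) with 0.1, 0.01 or 1 added, counts divided by 4, only the 6 libraries compared, the replicate number as a block, adjusted p alone, and each library left out in turn. The code was tested on simulated data.

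By name are given the 10 genes, up to 4 called genes per other list by mean FPKM, the most abundant gene of each cell type list, and the 8 genes most like the 10. Pck1, Irs2, Ly6g and Ucp1 fall outside this rule and were chosen after their values were seen. The members and lists were chosen with earlier results of these data known. Promoter windows are RefSeq, GRCm38.p6, 250 bases before to 50 after the start. Tables and figures used Python 3.11.15, pandas 2.3.3, numpy 2.4.6, scipy 1.17.1 and matplotlib 3.10.9. Blood was not analysed here.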

Additional observations from a re-analysis of the deposited data

How the results depend on the processing

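The count of the 10 genes called in DNCB against control was 5, and became 2 with library size alone and with limma at each of 3 pseudocounts (0.1, 0.01 and 1), 4 with no filter on low values (Cidec lost, adjusted p 0.0553), 6 with adjusted p alone, and 2 to 6 with a library left out. In scMSC against DNCB the count of 2 became 1 with limma on log2(FPKM + 1), 0 with only the 6 libraries compared, and 0 to 3 with a library left out. In scivMSC against DNCB the count of 4 became 5 with limma at 0.1 and 0.01 (Lipe gained) and with adjusted p alone, 3 with only the 6 libraries compared (Retn lost), and 1 to 4 with a library left out. In scMSC against control the count of 1 became 2 with DESeq2 and with a mean of at least 1 FPKM (Plin1 gained). With a library left out it ran from 1 to 2, and in scivMSC against control the count ran from 0 to 1. Between scMSC and scivMSC the count of 0 became 1 with DESeq2. The cause was not tested. With the replicate number as a block (replicate block) the counts were 3 in DNCB against control and 1 in scMSC against DNCB. The numbers do not mark pairs in the files.

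No direction reversed in DNCB against control or scivMSC against DNCB under any alternative. Reversals lay at small values. In scMSC against control, Plin4 was -0.0026 with no filter, and Cidec was 0.153 with library size alone and 0.101, 0.1011 and 0.1002 with limma at 0.1, 0.01 and 1. In scivMSC against control, Lipe was 0.160 with library size alone and 0.162, 0.163 and 0.154 with limma, and Pparg was 0.0165, 0.00896, 0.00897 and 0.00870 in the same order. Between scMSC and scivMSC, Fabp4 was -0.0369, -0.0370 and -0.0365 with limma. With a library left out, scMSC against DNCB ran from -0.24 to 0.71 for Lep and -0.14 to 0.52 for Plin1. Against control, scMSC ran from -0.17 to 0.29 for Plin4, -0.35 to 0.14 for Cidec, -0.20 to 0.32 for Lipe and -0.01245 to 0.49 for Fabp4. Against control, scivMSC ran from -0.23 to 0.32 for Adipoq, -0.10 to 0.37 for Plin4, -0.21 to 0.07335 for Lipe and -0.03344 to 0.40 for Fabp4. Between scMSC and scivMSC the ranges were -0.41 to 0.03747 for Plin1, -0.26 to 0.12 for Plin4, -0.14 to 0.35 for Lipe and -0.12 to 0.27 for Fabp4. The cause was not tested.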

Other observations

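Further lists of fat biology gave these values. Of 6 other secreted factors of fat, Angptl4 and Apln were called higher and Rbp4 and Nrg4 lower in DNCB than in control. Angptl4 was called at 1.81 (not without control 3, adjusted p 0.0600, and at 2.43 without control 1), and Apln at 1.70. The Apln call ended without control 1, control 3, any 1 DNCB library or scMSC 2 (adjusted p of 0.0518 to 0.133). Against DNCB, Apln was called lower in scMSC, which held without any 1 library, and in scivMSC. The scivMSC call ended without any 1 of 5 libraries (adjusted p of 0.0508 to 0.0822). Apln was also called lower than control in scMSC, but not without any 1 of 8 libraries or under 7 of 11 other settings. In DNCB against control, Rbp4 and Nrg4 had values of -1.28 and -1.33, and held without any 1 library, but not with limma on log2(FPKM + 1), at -0.98 and -0.55. Angptl4 was also called higher than control in scMSC and scivMSC. Those calls ended without any 1 of 6 and 4 libraries (adjusted p of 0.0526 to 0.125 and 0.0651 to 0.0783) and in fits of the 6 compared libraries. Nrg4 was called higher in scivMSC than in DNCB, but not without any 1 of 5 libraries (0.0649 to 0.0936).

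Of 8 adipocyte precursor genes 4 were called higher in DNCB than in control, namely Cd24a (1.23), Pdgfrb (1.42), Pdgfra (1.72) and Dlk1 (3.37), while the other 4 were fitted below 0 and not called. Fibroblast markers were also higher in these libraries, with sums of 1909 to 2236 FPKM in DNCB and 237 to 346 in control. Of 6 keratinocyte markers 2 were called higher and 1 lower. The part of these cells in the precursor genes was not tested. Cd24a and Pdgfrb held without any 1 library. The Pdgfra call ended without control 1, control 2 or any 1 DNCB library (adjusted p of 0.0523 to 0.126) and with the replicate block (0.0637). The Dlk1 call ended without any 1 control library, DNCB 2 or DNCB 3 (0.0564 to 0.0916) and with the replicate block (0.0504), and Dlk1, at under 1 FPKM in all libraries, was 0.64 with limma on log2(FPKM + 1).

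Of 6 thermogenic genes 3 were called lower in DNCB than in control: Cox8b (-2.59), Ppara (-1.49) and Ppargc1a (-1.63, not without DNCB 1 or DNCB 2, adjusted p of 0.0501 and 0.0646). Ppara and Ppargc1a were not called with limma on log2(FPKM + 1). Against control, Cox8b was also called lower in scMSC, which held without any 1 library, and in scivMSC. The scivMSC call ended without control 1, scivMSC 1 or scivMSC 2 (adjusted p of 0.0514 to 0.071). Ppara and Ppargc1a were called higher in scMSC than in DNCB. The Ppara call ended without DNCB 2 or DNCB 3, and the Ppargc1a call without any 1 of 7 libraries (0.0505 to 0.13). Of 11 other settings, 1 and 5 ended them. Cox8b and Ppargc1a are also expressed in muscle, and the part of muscle was not tested. Ucp1, chosen after its values were seen, was between 0 and 0.251 FPKM in all 12 libraries. Of 5 adipokine receptors edgeR called 0 in DNCB against control, with 3 at an unadjusted p under 0.05, and DESeq2 and limma also called 0.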
